A study of Mus musculus with 23 samples.

Results

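Rhox5 and 7 genes that write, copy or remove DNA methylation were followed through the differentiation of C2C12 myoblasts, 8 rows of the 32793 in the gene tables. The 8 symbols were given as a list: Rhox5 was chosen by the size of its difference between the genotypes in these same libraries, that is by its counts there, and Dnmt1, Dnmt3a, Dnmt3b, Uhrf1, Tet1, Tet2 and Tet3 were listed for what their proteins do. The genotype difference of Rhox5 is therefore described with its values and carries no test, while the enzymes were tested in every comparison. All 8 passed the filter on low counts, Rhox5 through the KO-labelled libraries.

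C2C12 is a mouse myoblast line that divides in serum-rich medium and forms multinucleated myotubes once serum is lowered. Poly(A) RNA came from control cells (WT in the sample titles) and Runx1KO cells (KO), on day 0 in growth medium, which holds 20% fetal bovine serum, or in low-serum medium with 2% horse serum on days 1, 3 and 6. The titles give the last time point as day 6 and the series text as day 5, and the titles were followed. The 23 libraries formed 8 groups of 3, except WT on day 0 with 2, and the labels say neither whether the Runx1KO cells are 1 clone nor whether replicates were separate cultures, so p-values measure the spread between these samples, which may be technical.

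DNA methylation at CpG sites is laid down by the de novo methyltransferases Dnmt3a and Dnmt3b and copied onto new DNA strands after replication by Dnmt1, which Uhrf1 guides to hemimethylated sites. The Tet enzymes oxidise 5-methylcytosine, the first step of active demethylation, and the oxidised base is also diluted when DNA is copied. Rhox5 (formerly Pem) encodes a homeodomain transcription factor of the X-linked reproductive homeobox cluster. It is normally transcribed in Sertoli cells, the epididymis and the placenta, and is a standard example of a gene kept off in somatic cells by promoter methylation. No methylation was measured here, only mRNA.

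Rhox5 is an X-linked protein-coding gene. Its GENCODE M21 model spans chrX:37804842-37808876 on the plus strand of GRCm38, the assembly that mm10 is made from, whereas the RefSeq entry in GRCm38.p6 starts 50234 bases further upstream, at position 37754608. The promoter window of the RefSeq start was the one at hand, and the gene tables carry symbols only, so which start was used in these cells is not known from them. The 250 bases upstream of that start are shown because CpG sites, in capitals, are where methylation of the promoter would fall; they lie at chrX:37754358-37754607, plus strand, and overlap no annotated exon.
Rhox5 upstream: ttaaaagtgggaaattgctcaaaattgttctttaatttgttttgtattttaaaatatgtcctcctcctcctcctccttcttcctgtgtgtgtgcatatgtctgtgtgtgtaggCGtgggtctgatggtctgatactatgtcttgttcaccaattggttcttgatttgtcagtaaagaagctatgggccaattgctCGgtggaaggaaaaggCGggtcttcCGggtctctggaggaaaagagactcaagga
There are 4 CpG sites in these bases and 5 in the whole 300-base window that also takes in the 50 bases after the start. The median over 32817 such mouse windows in RefSeq is 7, and 43.6% of windows hold 5 or fewer. The windows of the enzymes that are listed in RefSeq ranged from 2 to 57 CpG sites, with 57 at Tet2, 30 at Dnmt3b, 22 at Tet3 and 17 at Tet1.

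For Uhrf1 the upstream bases of one of its RefSeq starts are shown, chr17:56304063-56304312 on the plus strand of GRCm38.p6, because they carry the letters TTTCGCGC (capitals), a sequence of the kind bound by E2F factors, which drive genes of DNA synthesis.
Uhrf1 upstream: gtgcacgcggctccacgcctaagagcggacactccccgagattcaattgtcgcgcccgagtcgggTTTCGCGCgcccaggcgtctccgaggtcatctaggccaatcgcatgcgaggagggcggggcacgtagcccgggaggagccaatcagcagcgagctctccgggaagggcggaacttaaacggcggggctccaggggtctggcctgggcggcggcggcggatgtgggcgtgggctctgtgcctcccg
TTTCGCGC or TTTGGCGC, on either strand, occurred in 267 of the 32817 windows (0.814%). Among the 13 windows of the 8 genes, this Uhrf1 window held 1 match and a Dnmt1 window at chr9:20952574-20952873 (minus strand), which lies over exons of another transcript, held 2. The letters TGTGGT, the core read by Runx factors, occur in 16.8% of windows and not in the Rhox5 window. Among the 13 windows, only that of another Uhrf1 start, at chr17:56303087-56303386, held them, 1 time. CCGGAA, an Ets core, occurs in 14.9% of windows, 1 time in the Rhox5 window. It also occurs 1 time in the 300-base window of the Uhrf1 start shown, chr17:56304063-56304362. These motifs were picked after the windows had been read, and a match is a description of letters only.

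Total estimated counts lay between 22197606 and 23684077 per library, so depth was nearly even. Runx1 mRNA, the check on the genotype labels, was not lower in the KO-labelled libraries: their group means on days 0, 1, 3 and 6 were 120, 131, 217 and 311 CPM (counts scaled to the TMM-adjusted library size), against 84.0, 102, 149 and 153 CPM in WT. The labels do not describe the allele, so the counted exons may lie outside the deleted part, in which case Runx1 mRNA checks nothing. These samples are therefore called KO-labelled throughout, and every direction drawn between the genotypes rests on the labels. Replicate 2 of the KO-labelled day 1 group stood apart from its replicates, with chi-square values of 61.1 and 61.3 per degree of freedom against 3.10 to 27.4 for all other replicate pairs, so the main day 1 results are also given without it.

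The muscle markers Myod1 and Des were present in every group. Of the markers of other cells, 4 of 8 pluripotent, 3 of 7 blood, 3 of 5 endothelial, 5 of 5 epithelial and 1 of 5 adipocyte genes passed 3 counts in some library, while Pou5f1, Fgf4, Utf1, Adgre1, Emcn, Adipoq, Cidec and Lep were at 0 in every library. Some of those present differed between the genotypes. The summed blood markers on day 6 were 10.1 to 12.2 CPM in the KO-labelled libraries and 4.36 to 7.91 in WT, with the macrophage gene Cd68 higher (means of 10.7 against 3.32 CPM) and Csf1r lower (0.567 against 2.34 CPM). The summed epithelial markers in growth medium were 0.371 to 1.18 CPM against 6.67 to 9.37 in WT, most of it the keratin gene Krt19 (0.674 against 7.91 CPM). On day 6 those sums were 0.926 to 3.96 and 1.51 to 2.49 CPM. Other epithelial genes went the other way: Krt8 averaged 1.84 CPM on day 1 (39 to 44 counts) against 0.199 in WT, and Cdh1 had 8 to 19 counts in the KO-labelled libraries on day 6. Their part in the results was not tested.

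Rhox5 was abundant in every library labelled KO and close to the limit of detection in every WT library. In growth medium the 3 KO-labelled libraries held 1731, 1821 and 1723 counts (78.5, 85.0 and 79.8 CPM), and the 2 WT libraries held 9 and 5. On day 1 the KO-labelled libraries held 1541, 1813 and 1324 counts and the WT libraries 5, 3 and 5. On day 3 the values were 1673, 1583 and 1765 counts against 5, 12 and 3. On day 6 they were 1165, 1512 and 1645 counts against 13, 18 and 6. The groups are separated on every day by nearly the whole scale: the lowest of 12 KO-labelled libraries (1165 counts) and the highest of 11 WT libraries (18 counts) came from the same day, day 6.

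The ratio of the counts of the KO-labelled libraries to those of WT, pooled per group and scaled for library size, was 257 in growth medium, 371 on day 1, 260 on day 3 and 118 on day 6. The WT side of each ratio rests on a few counts. WT Rhox5 was not at 0 in any of the 11 libraries, with a median of 5 counts and a range from 0.127 to 0.798 CPM. The floor of 3 counts corresponds to about 0.13 CPM, so no time course in WT can be read from these levels. In bulk RNA, fewer cells that transcribe a gene and less of its RNA per cell cannot be told apart.

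**Figure D1:**
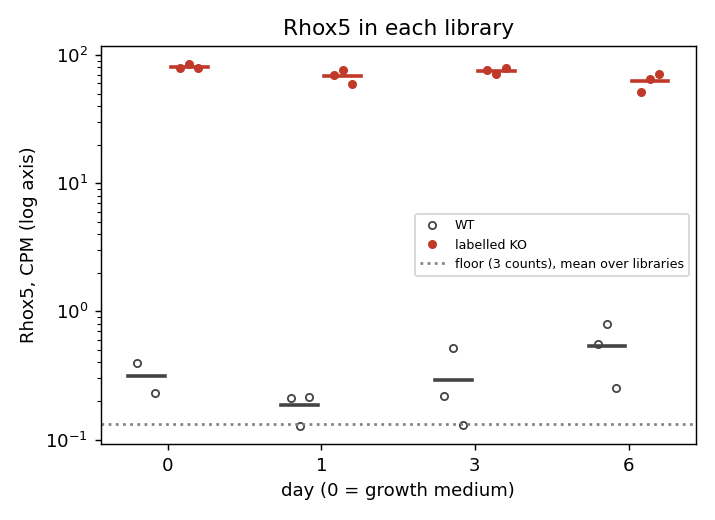
Rhox5 in each of the 23 libraries (vertical log axis, CPM) by day (0 is growth medium), with open circles for WT, filled circles for KO-labelled libraries, bars for group means and a dotted line for the floor of 3 counts. The KO-labelled libraries lie between 51.4 and 85.0 CPM and the WT libraries between 0.127 and 0.798 CPM, the lowest of them at the floor.

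Per transcript length, Rhox5 was among the more abundant mRNAs of the KO-labelled libraries. Its mean was 196 ± 5.71 TPM (abundance scaled for transcript length and depth, SD, n = 3) in growth medium, 186 ± 29.9 on day 1, 192 ± 8.09 on day 3 and 163 ± 20.5 on day 6. That placed it at rank 700 of 16767 genes with a TPM above 0 in growth medium and at rank 840 of 17857 on day 6. In WT its mean TPM was 0.795, 0.510, 0.823 and 1.49 on days 0, 1, 3 and 6, which placed it at rank 11802 of 16648 in growth medium. Within the KO-labelled libraries, Rhox5 exceeded each of the 7 enzymes in TPM on all 4 days, and its range did not overlap that of the next gene.

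Differentiation left Rhox5 abundant in the KO-labelled libraries. It averaged 81.1 ± 3.43 CPM (SD, n = 3) in growth medium, 68.2 ± 8.40 on day 1, 75.2 ± 4.26 on day 3 and 62.7 ± 10.3 on day 6. In edgeR's quasi-likelihood test the log2 fold change from growth medium (log2FC) was -0.25 on day 1 (SE 0.125, adjusted p = 0.101), -0.11 on day 3 (adjusted p = 0.473, SE 0.125) and -0.37 at the last time point (SE 0.126, adjusted p = 0.0114), so that only the day 6 decrease passed the threshold of 0.05. All 3 day 6 libraries were below the lowest growth-medium library, the lowest being replicate 1 at 51.4 CPM. Without that replicate the day 6 change was -0.25 (adjusted p = 0.0996), and with limma on log2(TPM + 1) it was -0.27 (adjusted p = 0.228). Without replicate 2 of day 1 the Rhox5 day 1 change was -0.33 (adjusted p = 0.0252).

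The other Rhox genes with a row stayed at or near 0. RefSeq lists 42 Rhox symbols, and not all of them had a row. Of the other 30 Rhox rows, which include paralogs of Rhox5, 4 had any count, and none had more than 1 count in a library, in either genotype. Outside the cluster, 13 of the 20 nearest RefSeq genes (10 on each side) had a row and 9 were tested. Of these 9, 0 passed the test between the genotypes in growth medium (17.5% of all 14187 tested genes did, in either direction), 3 on day 1 (42.2%; 1 of 9 without replicate 2 of the KO-labelled group), 1 on day 3 (43.2%) and 2 on day 6 (42.9%), and none on all 4 days. Their log2FC stayed between -0.46 and 0.48 on the 4 days. These neighbours did not show the separation of the genotypes for which Rhox5 was chosen, which is a description only.

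Germline genes whose promoters are methylated in somatic cells were examined as a list of 28. Of these, 8 (Asz1, Cyct, Figla, Hormad1, Mael, Rpl10l, Stk31 and Zfp42) were at 0 in every library, 11 never passed 3 counts and 9 did in at least 1 library. Dazl, an RNA-binding protein of germ cells, reached 2 counts in 1 WT library and was at 0 in all others. Of 5 germline genes that passed the filter, 4 had counts in growth medium, and 0 of these passed the test between the genotypes there (0 also at an unadjusted p under 0.05). Of the 5, 1 was higher in the KO-labelled libraries on day 1 and 2 were on days 3 and 6, while none was lower. Over all tested genes 7.36% were higher and 10.1% lower in growth medium, 22.9% and 19.2% on day 1, 24% and 19.2% on day 3, and 22% and 20.8% on day 6. The day 1 call was lost without replicate 2 of the KO-labelled day 1 group.

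Brdt and Hsf2bp were the germline genes called between the genotypes. Brdt, a testis-specific bromodomain protein, had 42, 70 and 56 counts in WT on day 6 and 96, 118 and 89 in the KO-labelled libraries, which do not overlap (log2FC 0.86, SE 0.224, adjusted p = 0.00326 in edgeR's test). Hsf2bp, a meiotic recombination factor, had 38, 24 and 27 counts in WT on day 6 and 144, 153 and 170 in the KO-labelled libraries (log2FC 2.40, SE 0.211, adjusted p = 2.38e-09). Both were present in WT libraries too, and neither exceeded 7.40 CPM in any library. Sohlh2, a germ cell transcription factor, was at 0 in all 5 growth-medium libraries and reached 10 to 21 counts in WT and 15 to 23 in the KO-labelled libraries on day 6. None of these genes was present in all KO-labelled libraries and near the floor in all WT libraries. Rhox5 was chosen for its separation of the genotypes and these genes were not, so the contrast with Rhox5 is a description only.

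Markers of Sertoli cells, a normal site of Rhox5 transcription, were examined beside it. Fshr was at 0 in every library and 6 of the 8 markers passed 3 counts somewhere. Over all days their summed level was 81.3 to 153 CPM in the KO-labelled libraries and 146 to 189 CPM in WT. Most of it was Sox9. Without Sox9 the sums were 2.73 to 3.97 CPM in the KO-labelled libraries and 3.78 to 4.03 in WT in growth medium, 3.27 to 3.67 and 6.92 to 8.74 on day 1, 5.29 to 7.73 and 11.1 to 15.3 on day 3, and 18.2 to 18.9 and 15.2 to 23.9 on day 6. They were thus lower in the KO-labelled libraries on days 1 and 3 and overlapped on days 0 and 6. The members did not move together. Inha was called lower on days 0, 1, 3 and 6 (log2FC -0.71, -1.53, -1.45 and -0.52). Amh was above 0 on these days (1.05, 1.12, 0.25 and 0.51) and called on none, and Dhh and Wt1 were mixed in sign and called on none. The summed fibroblast markers (Pdgfra, Col1a1, Dcn, Lum and Thy1) were lower in the KO-labelled libraries, at 22.3 to 30.0 CPM in growth medium against 399 to 439 in WT, and at 967 to 1015 against 5500 to 7636 on day 6. Most of these sums was Col1a1, with means of 18.0 against 403 CPM in growth medium and 920 against 6409 CPM on day 6. The other members did not all follow it. Dcn was higher in the KO-labelled libraries on days 0, 3 and 6 and lower on day 1, with means of 1.18 against 0.316 CPM in growth medium and 49.4 against 29.5 on day 6. Pdgfra was lower on days 0, 1 and 3 and stood at 20.4 against 21.0 CPM on day 6, Lum was at a few counts, and Thy1 was at 0 throughout. The part of these genes in any result here was not tested.

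The genes whose profiles most resembled that of Rhox5, by Pearson's r of log2 CPM over all 23 libraries among 10046 genes, were Col4a1 (0.989), Raet1d (0.970) and Col4a2 (0.967). Col4a1 and Col4a2 encode the main chains of basement membrane collagen and Raet1d a ligand of the NKG2D receptor of natural killer cells. Mean Col4a1 levels on days 0, 1, 3 and 6 were 585, 595, 585 and 508 CPM in the KO-labelled libraries and 59.3, 49.8, 84.5 and 79.4 CPM in WT. Within a genotype the likeness was lower: within the 12 KO-labelled libraries the r values were 0.25, 0.15 and -0.65, and within the 11 WT libraries 0.44, 0.43 and 0.39. The WT values rest on 3 to 18 Rhox5 counts per library, so little can be read from them. Libraries of one group share medium and day, so these correlations describe profiles and carry no p.

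The enzymes were expressed at very unequal levels. In growth medium the 2 maintenance genes led in both genotypes: Uhrf1 at 104 ± 3.16 TPM (SD, n = 2) in WT and 93.3 ± 3.49 (n = 3) in the KO-labelled libraries, and Dnmt1 at 70.7 ± 1.10 and 68.4 ± 4.40 TPM. Tet3 followed at 6.12 ± 0.962 and 6.57 ± 0.145 TPM. Tet2 stood at 2.90 and 2.07 TPM, Dnmt3a at 1.92 and 2.13, Dnmt3b at 1.44 and 1.17, and Tet1 at 0.705 and 0.560. Neighbours in that order did not overlap, except Dnmt3a and Tet2 in the KO-labelled libraries.

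By day 6 the order had changed at its head and middle. Dnmt1 (35.5 ± 4.66 TPM in WT, 32.1 ± 4.89 in the KO-labelled libraries) now exceeded Uhrf1 (22.8 ± 2.53 and 20.9 ± 1.72), and their ranges did not overlap. Tet2 (6.74 ± 0.714 TPM) and Tet3 (5.72 ± 2.00) overlapped in WT, whereas in the KO-labelled libraries Tet3 (6.69 ± 1.15) stood above Tet2 (5.05 ± 0.670). The place of Tet1 among the lowest genes is uncertain, because the ratio of its TPM to its CPM varied 2.91-fold between libraries, against 1.10-fold to 1.26-fold for the other members. A ratio of that kind follows the transcript lengths assigned to the gene.

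**Figure D2:**
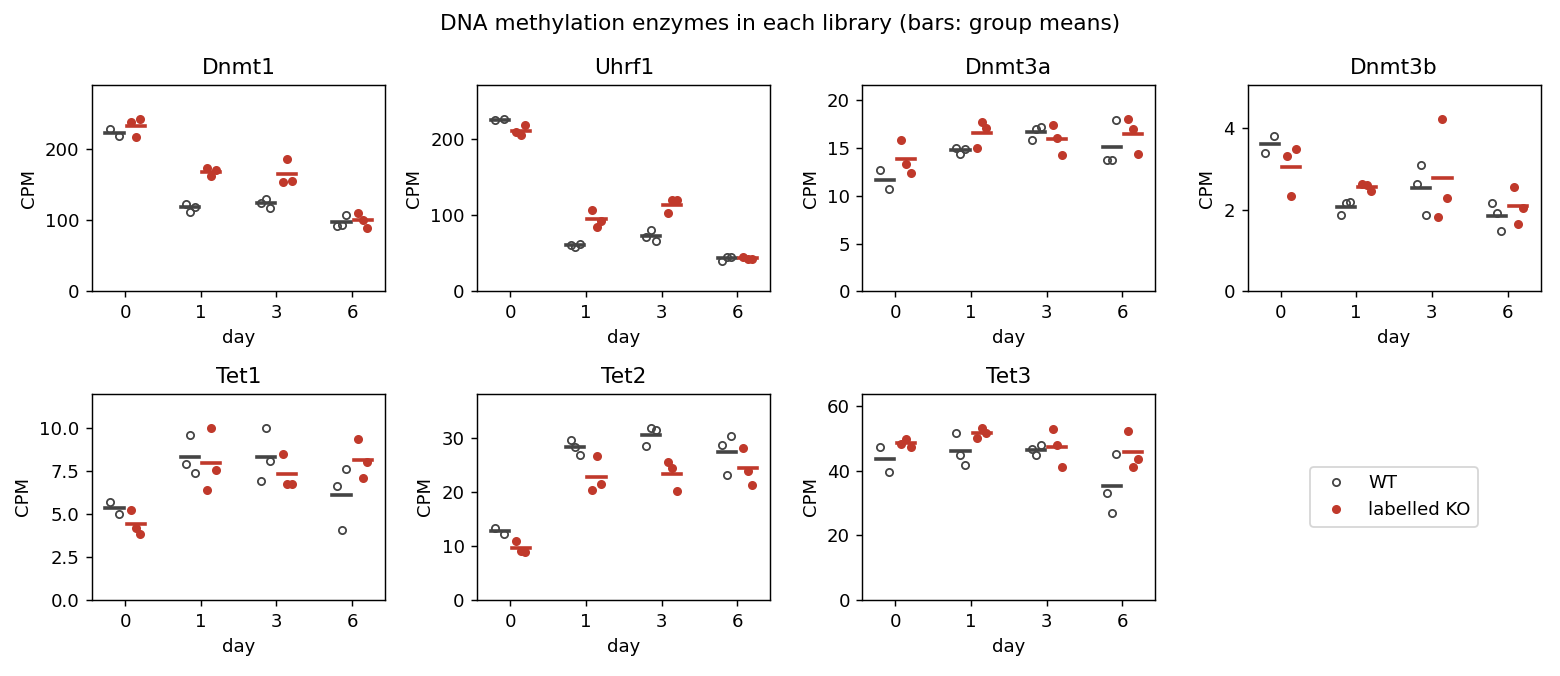
CPM of each of the 7 methylation enzymes by day (0 is growth medium), 1 panel per gene with an axis from 0, open circles for WT libraries, filled circles for KO-labelled libraries and bars for group means. Dnmt1 and Uhrf1 fall from day 0 in both genotypes with the KO-labelled libraries above WT on days 1 and 3, Tet2 rises in both, and Tet3 lies between 39.7 and 53.2 CPM in all libraries but 2 of the 3 WT ones of day 6.

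Serum withdrawal was followed by a fall of the maintenance genes and a rise of Tet2 in both genotypes. In WT, 6 of the 7 enzymes passed the test between growth medium and day 1 (54.7% of all tested genes did), 5 on day 3 (58.2%) and 5 on day 6 (63.6%). In the KO-labelled libraries, 4 of 7 passed on day 1 (52.3%), on day 3 (57.6%) and on day 6 (70%), and on day 1 also 4 of 7 without replicate 2. Against these backgrounds the counts show nothing particular to the enzymes. Up and down were mixed: 3 rose and 3 fell in WT on day 1, and 2 rose and 2 fell in the KO-labelled libraries on each day. Over all tested genes 27.1% rose and 27.6% fell in WT on day 1, 29.2% and 29% on day 3 and 32.6% and 31.1% on day 6, and in the KO-labelled libraries the shares were 27.2% and 25.2%, 30.4% and 27.2%, and 36.6% and 33.5%. The median log2FC of the 7 on day 6 was -0.31 in WT and -0.09 in the KO-labelled libraries, beside 0.05 over all tested genes in each.

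Uhrf1, the hemimethylated-CpG reader that brings Dnmt1 to replicated DNA, fell furthest. In WT it went from 224 and 225 CPM in growth medium to 61.0, 57.9 and 62.3 on day 1, 71.8, 81.1 and 66.0 on day 3, and 40.3, 44.7 and 44.7 on day 6. Every later WT library was thus below both growth-medium libraries, and day 3 lay above day 1. The log2FC from growth medium was -1.89 on day 1 (SE 0.0951, adjusted p = 2.42e-13, edgeR), -1.62 on day 3 and -2.38 on day 6, which left 26.9%, 32.5% and 19.2% of the starting level. In the KO-labelled libraries it went from 209, 205 and 218 CPM to 107, 84.2 and 92.5 on day 1, 102, 119 and 120 on day 3, and 45.3, 42.7 and 42.8 on day 6. There the log2FC was -1.16, -0.89 and -2.27, leaving 44.9%, 54.0% and 20.7%, with all 6 changes called. The day 1 value was -1.07 without replicate 2.

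Dnmt1, the maintenance methyltransferase, also fell in both genotypes, with smaller changes. Its course was not the same in the KO-labelled libraries. From day 1 to day 3 its mean there went from 169 to 165 CPM, while that of Uhrf1 went from 94.4 to 114 CPM. WT libraries held 229 and 219 CPM in growth medium, 123, 113 and 119 on day 1, 124, 130 and 117 on day 3, and 92.5, 93.6 and 108 on day 6. The KO-labelled libraries held 239, 218 and 242 CPM in growth medium, 173, 163 and 171 on day 1, 155, 186 and 155 on day 3, and 111, 101 and 89.2 on day 6. The growth-medium ranges overlap between the genotypes, as do those of day 6, and those of days 1 and 3 do not. From growth medium, Dnmt1 fell in WT with a log2FC of -0.92 on day 1, -0.85 on day 3 and -1.19 on day 6 (edgeR adjusted p = 2.07e-10 for day 6). In the KO-labelled libraries the log2FC was -0.46, -0.49 and -1.21 (adjusted p = 1.86e-11 for day 6), again with all 6 changes called. On day 1 it was -0.43 without replicate 2 of the KO-labelled group.

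Tet2, which unlike Tet1 and Tet3 lacks a CXXC DNA-binding domain of its own, rose to more than its growth-medium level in both genotypes on every later day. In WT it went from 13.4 and 12.2 CPM to 29.6, 28.3 and 26.9 on day 1, 28.4, 31.8 and 31.4 on day 3, and 28.8, 23.1 and 30.3 on day 6. In the KO-labelled libraries it went from 11.0, 9.01 and 8.90 CPM to 20.3, 26.7 and 21.5 on day 1, 25.5, 24.5 and 20.2 on day 3, and 28.1, 23.8 and 21.3 on day 6. No library of days 1 to 6 overlapped the growth-medium libraries of its genotype. The WT log2FC was 1.14, 1.25 and 1.10, and that of the KO-labelled libraries 1.24, 1.28 and 1.34, with every edgeR adjusted p at or below 7.59e-07. Omitting replicate 2 of the KO-labelled day 1 group gave 1.12 there. Tet2 thus reached 214% to 239% of its growth-medium level in WT and 237% to 253% in the KO-labelled libraries.

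Tet1, the low-abundance member of the family, rose less evenly. WT libraries held 5.67 and 5.00 CPM in growth medium and 7.90, 9.59 and 7.35 on day 1, and 6.62, 4.08 and 7.59 on day 6, where 1 library was below both growth-medium libraries. The KO-labelled libraries held 5.22, 4.16 and 3.85 CPM in growth medium, 6.41, 9.96 and 7.52 on day 1 and 9.31, 7.10 and 8.01 on day 6. The Tet1 log2FC was 0.63, 0.64 and 0.19 in WT (edgeR adjusted p = 0.0233, 0.0207 and 0.481) and 0.85, 0.73 and 0.88 in the KO-labelled libraries (adjusted p = 0.00142, 0.00475 and 0.000626). The day 1 value was 0.67 (adjusted p = 0.0122) without replicate 2 of the KO-labelled group. A call on day 6 in one genotype alone does not show a difference between them: the interaction on day 6 was 0.69 (SE 0.311, adjusted p = 0.165). With limma on log2(TPM + 1) the Tet1 calls of days 1 and 3 were lost in both genotypes. Both WT calls were also lost without replicate 2 of WT in growth medium, and without replicate 2 of day 1 or of day 3 for the day in question. Tet3, the most abundant Tet by TPM in growth medium, passed the test at no time in either genotype, with log2FC between -0.31 and 0.10. Its day 6 change in WT, -0.31, was called without the filter (-0.33, adjusted p = 0.0304) and without replicate 3 of WT day 6 (-0.47, adjusted p = 0.00400).

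The de novo enzymes moved in opposite directions in WT. Dnmt3a averaged 11.7 ± 1.39 CPM (SD, n = 2) in growth medium and 14.8 ± 0.309, 16.6 ± 0.735 and 15.1 ± 2.42 CPM (n = 3 each) on days 1, 3 and 6, with log2FC of 0.34, 0.51 and 0.37 (edgeR adjusted p = 0.0415, 0.00289 and 0.0211). In the KO-labelled libraries it averaged 13.9 ± 1.74, 16.6 ± 1.42, 15.9 ± 1.58 and 16.5 ± 1.85 CPM, and its log2FC of 0.26, 0.20 and 0.25 did not pass (adjusted p = 0.0727 on day 1 and 0.0683 on day 6). The day 6 change there was called in 8 of 15 alternatives, RLE scaling, library size only, DESeq2 and both limma fits among them, and the day 1 change in 5 of 15. No interaction was called for Dnmt3a. All 3 WT calls for Dnmt3a were lost without replicate 2 of WT in growth medium, the lower of the 2 libraries there at 10.7 CPM. Without replicate 3 of WT day 1, or of WT day 6, the call of that day was lost as well, and the WT day 1 call was also lost without the filter and in both limma fits.

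Dnmt3b was counted 35 to 94 times per library, so its values are the least precise of the enzymes. WT libraries held 3.39 and 3.80 CPM in growth medium, 1.87, 2.16 and 2.18 on day 1, 2.61, 3.08 and 1.87 on day 3, and 2.15, 1.91 and 1.47 on day 6. Every later WT library was below both growth-medium libraries. The log2FC was -0.79 on day 1 (SE 0.286, adjusted p = 0.0222, edgeR), -0.51 on day 3 (adjusted p = 0.125) and -0.96 on day 6 (adjusted p = 0.00581, SE 0.289). Leaving out either WT growth-medium library, or replicate 1 or 2 of WT day 1, ended the day 1 call. In the KO-labelled libraries Dnmt3b averaged 3.04, 2.56, 2.77 and 2.08 CPM on days 0, 1, 3 and 6 and passed on no day. Its day 6 log2FC there was -0.55 (adjusted p = 0.0680), and it was called on omission of replicate 2 of growth medium (-0.71, adjusted p = 0.0328) or replicate 1 of day 6 (-0.72, adjusted p = 0.0377).

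**Figure D3:**
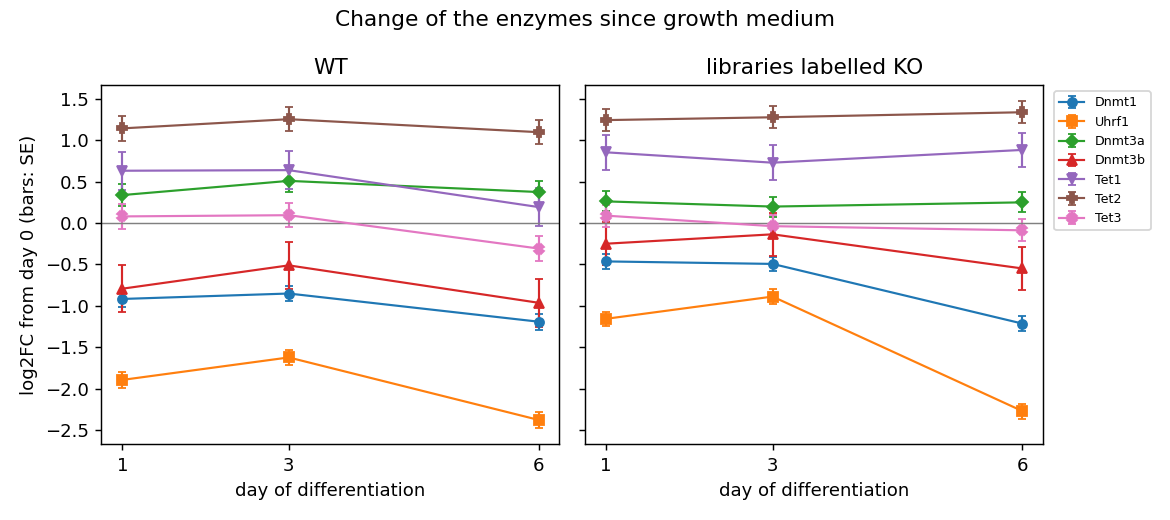
Log2 fold change from growth medium of each enzyme on days 1, 3 and 6, in WT (left) and in the KO-labelled libraries (right); points are edgeR estimates and bars their SE. Uhrf1 and Dnmt1 lie below 0 and Tet2 above 0 at every point, and on days 1 and 3 the Uhrf1 and Dnmt1 points of the KO-labelled libraries are nearer to 0 than those of WT.

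Between the genotypes, calls among the enzymes fell mainly on days 1 and 3. In growth medium 0 of 7 passed the test (1 at an unadjusted p under 0.05, 0 by DESeq2 and by limma on TPM), while 17.5% of all tested genes did. On day 1, 3 of 7 passed (42.2% of all genes), with Dnmt1 and Uhrf1 higher in the KO-labelled libraries and Tet2 lower, as without replicate 2 of that group. On day 3 the same 3 passed in the same directions (43.2%), and on day 6 Tet3 alone (42.9%). Read against these backgrounds, the counts show nothing particular to the enzymes. The median log2FC of the 7 was -0.09, 0.17, 0.02 and 0.12 on days 0, 1, 3 and 6, beside medians over all genes of 0.00, 0.03, 0.04 and 0.00. Groups of the 2 genotypes did not overlap in CPM for 3, 5, 3 and 0 of 7 enzymes on days 0, 1, 3 and 6, and the same held for 51.6%, 47.1%, 60.4% and 51.7% of all tested genes.

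Uhrf1 was 1.56-fold higher in the KO-labelled libraries on both days, with a log2FC of 0.64 on day 1 (adjusted p = 3.31e-06, SE 0.0872, edgeR) and 0.64 on day 3 (SE 0.0867, adjusted p = 2.36e-06). In growth medium its log2FC was -0.09 (adjusted p = 0.583), although the lower WT library (224 CPM) was above the highest library labelled KO (218 CPM), and on day 6 it was 0.01 (adjusted p = 0.928). Without replicate 2 of the KO-labelled day 1 group the Uhrf1 day 1 difference was 0.70. Dnmt1 was 1.43-fold higher on day 1 (log2FC 0.51, SE 0.0868, adjusted p = 5.47e-05) and 1.33-fold higher on day 3 (0.42, SE 0.0868, adjusted p = 0.000434), and in growth medium and on day 6 its log2FC was 0.06 and 0.04. Without replicate 2 the Dnmt1 day 1 difference was 0.52. With limma on log2(TPM + 1) the Dnmt1 difference on day 3 was 0.27 and missed the threshold (adjusted p = 0.0568).

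The interaction, the difference between the genotypes in their change since growth medium, was called for 2 of 7 enzymes on day 1 (3.95% of all genes), 1 on day 3 (10.7%) and 0 on day 6 (13% of all genes; 1 of 7 at an unadjusted p under 0.05, 0 by DESeq2 and by limma on TPM). For Uhrf1 it was 0.74 on day 1 (adjusted p = 0.00182, SE 0.128) and 0.74 on day 3 (SE 0.128, adjusted p = 0.000366). Without replicate 2 of the KO-labelled group the Uhrf1 interaction on day 1 was 0.77. For Dnmt1 it was 0.45 on day 1 (SE 0.129, adjusted p = 0.0490), a call lost in 19 of 20 alternatives, the omission of each library among them, and 0.36 on day 3 (adjusted p = 0.0816). On day 6 both were near 0, at 0.11 for Uhrf1 and -0.02 for Dnmt1.

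Tet2 lay below WT in the KO-labelled libraries on every day, by a log2FC of -0.41 in growth medium (adjusted p = 0.0682, edgeR; 0.0303 with only the groups compared), -0.31 on day 1 (SE 0.123, adjusted p = 0.0484), -0.38 on day 3 (adjusted p = 0.0143, SE 0.123) and -0.17 on day 6 (adjusted p = 0.293). On the TPM scale the day 6 difference was larger and called, at -0.36 with limma on log2(TPM + 1) (adjusted p = 0.0269) and -0.41 on log2(TPM + 0.1) (adjusted p = 0.0359). The median over all genes on day 6 moved the same way in these 2 fits, from 0.00 to -0.10 and -0.12. The groups did not overlap on days 0, 1 and 3. The day 1 call of Tet2 was lost on leaving out replicate 1 or 3 of the KO-labelled group or any 1 of the 3 WT libraries, where the log2FC ran from -0.34 to -0.23, and was -0.46 (adjusted p = 0.00566) without replicate 2 of the KO-labelled group. It was lost as well with the replicate block (-0.31, adjusted p = 0.0520) and with only the groups compared (-0.33, adjusted p = 0.0884). The day 3 call was lost without replicate 3 of the KO-labelled group (-0.29, adjusted p = 0.0958). The Tet2 interactions of days 1, 3 and 6 were 0.10, 0.02 and 0.24, with no adjusted p below 0.505, so a difference in its rise was not detected.

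Tet3 was called on day 6 only, at a log2FC of 0.38 (SE 0.133, adjusted p = 0.0254, edgeR). The WT libraries held 33.2, 27.1 and 45.2 CPM and the KO-labelled libraries 52.2, 41.3 and 43.6, so the groups overlap. Leaving out replicate 1 of the KO-labelled group, or replicate 1 or 2 of WT, ended the call, with log2FC of 0.24, 0.31 and 0.22. It was lost too when libraries were scaled by their size alone (0.30), with only the groups compared (0.36), and with limma on log2(TPM + 1) (0.23, adjusted p = 0.265) or log2(TPM + 0.1) (0.27, adjusted p = 0.256). Dnmt3a, Dnmt3b and Tet1 passed the test between the genotypes on no day. Their log2FC ran from -0.06 to 0.25 for Dnmt3a, from -0.24 to 0.30 for Dnmt3b with SE of 0.260 to 0.281, and from -0.28 to 0.41 for Tet1 with SE of 0.196 to 0.239, so differences of this size could not be told from 0 for the 2 rarer genes. The day 6 value of Tet1, 0.41, was 0.57 and called (adjusted p = 0.0450) without replicate 3 of WT.

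**Figure D4:**
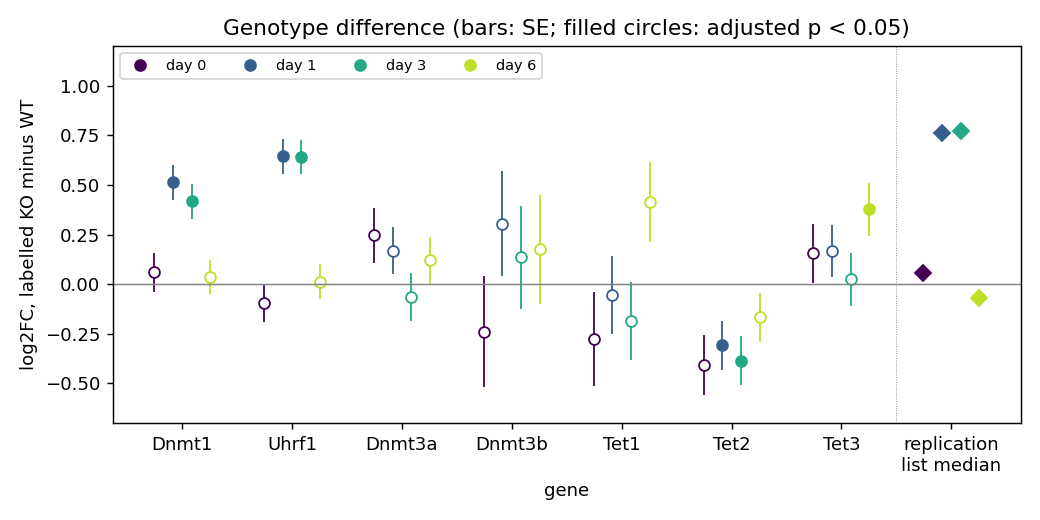
Log2 fold change of the KO-labelled libraries minus WT for each enzyme on days 0, 1, 3 and 6 (circles with SE bars, filled where edgeR's adjusted p is under 0.05), beside the median of 29 DNA replication genes (diamonds, with no error bar). Dnmt1 and Uhrf1 are near 0 on days 0 and 6 and above 0 on days 1 and 3, as is the replication median, and Tet2 is below 0 on all 4 days.

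The difference in Dnmt1 and Uhrf1 was accompanied by one in the genes of DNA synthesis. Of 29 replication genes, such as the Mcm helicase subunits, Cdc6 and ribonucleotide reductase, 1 was higher in the KO-labelled libraries in growth medium, 28 on day 1, 29 on day 3 and 1 on day 6, with 1 lower on day 6. Over all tested genes 7.36%, 22.9%, 24% and 22% were higher on these days, and 20.8% lower on day 6. Their median log2FC was 0.06, 0.76, 0.77 and -0.07. Without replicate 2 of the KO-labelled day 1 group, 28 were higher on day 1 and 0 lower. Over all alternatives 26 to 29 were higher on day 1 and 27 to 29 on day 3, with 0 lower. In growth medium 0 to 4 were higher, and on day 6 1 to 7 were lower, 7 in both limma fits and 6 without replicate 1 of WT. From growth medium to day 1, 29 of 29 fell in each genotype (27.6% of all tested genes in WT and 25.2% in the KO-labelled libraries), with a median of -1.70 in WT and -1.03 in the KO-labelled libraries; the medians on day 6 were -1.80 and -1.98. Summed over the list, growth-medium libraries held 3494 to 3620 CPM in WT and 3548 to 3911 in the KO-labelled ones, and on day 1 the sums were 998 to 1036 and 1638 to 1860 CPM. The part of these genes in the enzyme differences was not tested.

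Over the 23 libraries the genes with profiles closest to that of Dnmt1 were Mcm4, a subunit of the replicative helicase (r = 0.983), Senp1, a SUMO protease (0.981), and Dna2, a nuclease-helicase of DNA replication (0.981). Mcm4 fell from 176 to 47.0 CPM in WT and from 192 to 95.1 CPM in the KO-labelled libraries by day 1. For Dnmt3b the closest were Cep128 (0.752), a centriole protein, Bora (0.742), an activator of Aurora A and Plk1 in mitosis, and Dph3 (0.738), of diphthamide synthesis. As above, the libraries of a group share medium and day.

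Partners of maintenance and silencing, a list of 20 genes, came next. Dppa3 was at 0 in every library and Dnmt3l is described below, which leaves 18. In growth medium 0 were higher and 1 lower in the KO-labelled libraries (7.36% and 10.1% of all tested genes were), on day 1 11 and 2 (22.9% and 19.2%), on day 3 9 and 0 (24% and 19.2%), and on day 6 3 and 1 (22% and 20.8%). Their median log2FC was 0.07, 0.28, 0.29 and 0.00. Hells, a chromatin remodeller needed for methylation of heterochromatin, and its partner Cdca7 led on day 1, at log2FC of 1.27 (SE 0.158) and 0.91 (SE 0.0951). Hells had 14.2, 13.7 and 14.1 CPM in WT on day 1 and 30.3, 46.5 and 24.0 in the KO-labelled libraries, the highest being replicate 2. Omitting it gave 0.93 for Hells and 0.91 for Cdca7, both called. Cdca7 remained higher on day 3 (1.04) and day 6 (0.40). Hells remained higher on day 3 (0.75) and was not called on day 6 (-0.15). Cdca7l, a homologue of Cdca7, was lower on days 0, 1 and 6 (-0.43, -0.48 and -1.17). Without replicate 2 of the KO-labelled day 1 group, 9 of the list were higher and 2 lower on day 1. The other alternatives were counted with Dnmt3l in the list, so only their counts of higher genes are given. Over all alternatives 0 to 3 were higher in growth medium, 7 to 11 on day 1, 8 to 9 on day 3 and 1 to 3 on day 6. The high count in growth medium and the low one on day 1 came with only the groups compared, and the low one on day 6 with limma on TPM. Since growth medium 15 of 18 had fallen by day 6 in each genotype (31.1% of all tested genes in WT and 33.5% in the KO-labelled libraries), with Suv39h2, a histone H3 lysine 9 methyltransferase, at -2.36 in WT and -2.26 in the KO-labelled libraries.

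Dnmt3l, a catalytically inactive cofactor of Dnmt3a that is normally confined to germ cells and early embryos, was found in WT and hardly at all in the KO-labelled libraries. WT libraries held 7 and 5 counts in growth medium, 0, 1 and 0 on day 1, 7, 3 and 8 on day 3, and 36, 26 and 25 on day 6. The KO-labelled libraries held 0 counts in 11 of 12 and 1 count in replicate 1 of day 6. On day 1 both genotypes were under the floor. Dnmt3l passed the filter on low counts only through WT on day 6, so its values are a description and no test is given. The WT level on day 6 was 1.05 to 1.55 CPM, so Dnmt3l mRNA was rare in these cells even where it was found.

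Readers of methylated CpG and their relatives, a list of 10, were nearly even between the genotypes, with 1, 3, 1 and 2 higher in the KO-labelled libraries and 1, 1, 1 and 2 lower on days 0, 1, 3 and 6, and medians between -0.03 and 0.01. Over all tested genes 7.36%, 22.9%, 24% and 22% were higher and 10.1%, 19.2%, 19.2% and 20.8% lower, so counts out of 10 are near the background. The day 1 counts were 2 higher and 1 lower without replicate 2 of the KO-labelled group. The same pair of genes was called on all 4 days. Mbd3, a subunit of NuRD complexes that in mammals binds methylated CpG poorly itself, was higher in the KO-labelled libraries (log2FC 0.37, 0.49, 0.73 and 0.59), and Zbtb4, a zinc finger protein that binds methylated DNA, was lower (-0.30, -0.45, -0.52 and -0.32). Their growth-medium calls were the less certain ones: no gene of the list was higher there in 3 of 14 alternatives (without replicate 3 of the KO-labelled group or either WT library), and none was lower in 7 of 14. On day 3 Mbd3 stood at 109, 105 and 98.6 CPM in WT and 170, 168 and 181 in the KO-labelled libraries. Zbtb4 stood at 105, 104 and 104 CPM against 69.2, 78.4 and 70.9.

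Genes of base repair and demethylation, 18 of 20 tested, were counted as higher and as lower in the KO-labelled libraries as follows: 6 and 2 in growth medium, 8 and 0 on day 1, 12 and 2 on day 3, and 6 and 1 on day 6. The shares over all tested genes were 7.36% and 10.1% in growth medium, 22.9% and 19.2% on day 1, 24% and 19.2% on day 3, and 22% and 20.8% on day 6. On day 1, 8 were higher and 1 lower without replicate 2 of the KO-labelled group. Over all alternatives 3 to 6 were higher and 1 to 3 lower in growth medium (3 and 1 without replicate 2 of WT), 6 to 8 and 0 to 2 on day 1, 8 to 12 and 1 to 4 on day 3, and 5 to 7 and 1 to 3 on day 6. The medians were 0.04, 0.16, 0.36 and 0.19, beside 0.00, 0.03, 0.04 and 0.00 over all genes. Tdg, the glycosylase that excises oxidised methylcytosine after Tet action, had 102, 91.8 and 103 CPM in WT on day 1 and 165, 176 and 167 in the KO-labelled libraries (log2FC 0.77, SE 0.0687; 0.72 without replicate 2). Gadd45a, a stress-induced adaptor linked to demethylation and to growth arrest, rose from 9.63 and 9.03 CPM in growth medium to 103, 83.6 and 73.3 on day 6 in WT, and from 14.7, 18.8 and 13.1 to 188, 236 and 246 in the KO-labelled libraries. Its genotype difference was 0.73 in growth medium (adjusted p = 0.00355, edgeR), 0.05 on day 1, -0.08 on day 3 and 1.36 on day 6 (adjusted p = 5.96e-09, SE 0.126). The interaction of Gadd45a changed sign, from -0.81 on day 3 (adjusted p = 0.0142) to 0.63 on day 6 (SE 0.210, adjusted p = 0.0494).

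Apobec2, a muscle-enriched member of the cytidine deaminase family, rose in both genotypes, to 12.8, 8.47 and 9.60 CPM in WT on day 6 and to 25.4, 31.3 and 31.0 in the KO-labelled libraries (log2FC between them 1.50, SE 0.153). Idh1, which makes the 2-oxoglutarate that Tet enzymes use, was lower in the KO-labelled libraries on days 0, 3 and 6, at -0.32, -0.37 and -0.99. The 10 muscle markers moved with the same groups: their summed level on day 6 was 11022 to 13387 CPM in the KO-labelled libraries and 3358 to 3561 CPM in WT. Most of that sum was skeletal actin Acta1, at means of 6952 against 1043 CPM, and Des, at 2795 against 1574. On day 6, 7 of the 10 were higher and 2 lower (22% and 20.8% of all tested genes were), the latter being the myoblast factors Pax7 (24.1 against 39.9 CPM) and Myf5 (26.7 against 33.8). The part of the muscle program in the Apobec2, Gadd45a and Idh1 differences was not tested.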

How the data were processed

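Poly(A) RNA was measured in 23 libraries. The authors deposited estimated counts and TPM per gene symbol, made with Bowtie2, RSEM and the mm10 build per the submitters' processing notes; versions, annotation and strand use are not given in the sources used here. The estimated counts deposited by the authors were whole numbers, so rounding changed nothing, and RSEM divides reads shared by similar genes. TPM values, as deposited by the authors, were used for levels between genes.

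Tests were quasi-likelihood F-tests of edgeR 4.0.16 (R 4.3.3) on the counts, with TMM scaling, filterByExpr (minimum count 10, minimum total 15) and 1 group-means model over 23 libraries. Benjamini-Hochberg adjustment ran over 14187 genes per contrast (threshold 0.05), and the SE comes from the F statistic. The procedure was tested on simulated data. Log2 CPM used a prior count of 2, and the floor was 3 counts. Genomic positions come from GENCODE M21 and RefSeq (GRCm38.p6), and all 8 members were matched by symbol. Alternatives comprised RLE scaling, library size only, DESeq2 1.42.0, limma 3.58.1 on log2(TPM + 1) and log2(TPM + 0.1), a stricter filter (mean count 50 or more) or none, only the groups compared, the replicate block and omission of each library. Likeness within a genotype, the list counts under the alternatives and the day 1 values of list genes and neighbours without 1 library were added after the data had been seen.

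The 8 members and the gene lists were chosen with earlier results of these data known. Members were named in every group, the 3 most alike genes for Rhox5, Dnmt1 and Dnmt3b, and from each list the 2 highest and 2 lowest called genes of a comparison at most; Dazl, the Gadd45a values that were not such extremes and the cell type markers named were chosen after their values were seen. A gene's antisense or overlapping neighbours cannot be told apart from it without strand.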

Additional observations from a re-analysis of the deposited data

Results flagged for a closer look

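The change since growth medium differed between the genotypes, by edgeR's interaction test, for 2 enzymes. For Uhrf1 the fall was smaller in the KO-labelled libraries by 0.74 (log2 scale, SE 0.128, adjusted p = 0.00182) on day 1 and by 0.74 (SE 0.128, adjusted p = 0.000366) on day 3, and it was called on both days in every alternative run. For Dnmt1 it was smaller by 0.45 (SE 0.129, adjusted p = 0.0490) on day 1, a call that held with DESeq2 (0.42, adjusted p = 0.0283) and was lost in the other 19 alternatives, with adjusted p up to 0.231. All 3 KO-labelled libraries exceeded all 3 WT libraries for both genes on day 1 and on day 3. Over all tested genes, 47.1% on day 1 and 60.4% on day 3 did not overlap between the genotypes, in either direction.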

How the results depend on the processing

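Of 91 enzyme results, 38 were called and 25 of these kept their call in all of their alternatives; of 1442 alternative values, 82 in 22 results changed sign, none of them called in either fit. Between the genotypes 1 enzyme instead of 0 was called in growth medium with only the groups compared, and on day 6 0 instead of 1 with library size only or only the groups compared; in both limma fits the 1 called on day 6 was Tet2 in place of Tet3; omission of single libraries gave 0 there in growth medium and 0 to 2 on day 6. In WT, 3 instead of 6 were called on day 1 with limma on log2(TPM + 0.1), and omission gave 3 to 5 on day 1 and on day 3. The interaction on day 1 was called for 1 enzyme instead of 2 with RLE scaling, library size only, no filter, the stricter filter (mean count 50 or more), only the groups compared, either limma fit and each omission (1 to 1). The Rhox5 change on day 1 in the KO-labelled libraries was -0.28 without the filter (adjusted p = 0.0402) and -0.33 to -0.16 over omissions; on day 6 it was -0.27 with limma on log2(TPM + 1) or log2(TPM + 0.1), neither called, and -0.48 to -0.25 over omissions. The cause was not tested.

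Equal replicate numbers did not pair the libraries: the correlation of their deviations ran from -0.24 to 0.12 over 26 pairs, and in 0 contrasts was every pair over 0.1. With the replicate block the interaction on day 1 was called for 1 enzyme (Uhrf1), the genotype difference on day 1 for 2 (Tet2 was lost, as with only the groups compared), and the Rhox5 change on day 6 was -0.37 (adjusted p = 0.0136).

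With limma on log2(TPM + 0.1) the median of all genes moved from 0.04 to -0.11 between the genotypes on day 3. In WT on day 3 it moved from 0.02 to 0.18. That fit changes the measure and the method together, and their parts were not separated. Depth limits Dnmt3b, Tet1, Dnmt3l and WT Rhox5, which had the fewest counts. WT in growth medium rests on 2 libraries, and the sequence at the second Rhox5 start was not used here.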
